A study of Mus musculus with 9 samples.

Results

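Interferon response genes are the genes that cells switch on when they sense interferon, and 41 of them, drawn from textbook interferon biology and grouped by the role of their proteins, are described here in mouse liver. They were found by symbol among the 55401 genes of the deposited count table, and 40 of the 41 were among the 12660 genes with enough counts to be tested. RNA from the left lobe was read by QuantSeq, which sequences the 3' ends of polyadenylated transcripts, in 9 libraries from male mice, 3 in each of 3 groups. Chow mice (replicates 7, 8 and 9) ate normal chow and received neither streptozotocin nor Atglistatin. STAM mice (replicates 1, 2 and 3) were given 200 µg of streptozotocin, a toxin of pancreatic beta cells, under the skin at 2 days of age, then ate a high-fat diet that began at 4 weeks of age and lasted 4 weeks. STAM + Atglistatin mice (replicates 4, 5 and 6) had the same streptozotocin and diet, with the adipose triglyceride lipase inhibitor Atglistatin added to the feed. Streptozotocin and the high-fat diet were always given together, so their effects cannot be told apart. The sources used here do not give the strain of the mice.

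Type I and type III interferons bind receptors that activate the kinases JAK1 and TYK2. The signal leads to the complex ISGF3, which contains STAT2 and IRF9 and binds the interferon-stimulated response element (ISRE) in promoters. Interferon gamma acts at another element, the gamma-activated site (GAS). The induced proteins sense viral RNA and DNA, block viral translation and replication, tag proteins with ISG15, trim peptides for antigen presentation and restrain the response itself. In the liver, hepatocytes, resident macrophages (Kupffer cells), endothelial cells and lymphocytes can all respond.

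Library totals ranged from 7.41 to 9.91 in units of 1e6 counts. Levels are counts per 1e6 on library totals scaled by edgeR's TMM method (CPM), not divided by transcript length, so they are compared between samples and never between genes. Where values are listed, they follow the order of the replicates above. The 6 hepatocyte markers summed to 85602 to 96812 CPM in chow, 45236 to 52722 in STAM and 67628 to 68263 in STAM + Atglistatin, and 3 of them fell in STAM against chow. Against chow 4 fell in STAM + Atglistatin, and against STAM 1 rose and 1 fell. The 7 Kupffer cell markers summed to 237 to 304, 287 to 335 and 275 to 375 CPM in the same order of groups, and the 8 markers of recruited macrophages to 85.0 to 155, 89.7 to 118 and 109 to 145 CPM. Plasmacytoid dendritic cell markers, from the cells that make most type I interferon, summed to 1.69 to 4.94, 4.33 to 5.90 and 0.803 to 6.27 CPM. Each list of T and natural killer cell, B cell and neutrophil markers summed to 9.51 CPM or less in every library, with Ly6g at 0 in all groups and Cd79a at 0 in STAM and STAM + Atglistatin. B cell markers summed to 2.81 to 3.74 CPM in chow, 0.708 to 2.76 in STAM and 0.933 to 1.2 in STAM + Atglistatin. Both streptozotocin-treated groups thus lay below chow, on few counts (83, 41 and 31 summed by group). The T and natural killer cell and the neutrophil sums overlapped between all groups. No tested marker of these immune cells passed in any comparison, and 1 of 5 endothelial markers rose in STAM against chow. Summed, the 5 endothelial markers were not higher in STAM, at 266 to 290 CPM in chow and 246 to 273 in STAM. In STAM + Atglistatin they summed to 288 to 344 CPM, above every STAM library. Only 2 of 5 plasmacytoid dendritic cell, 2 of 8 T and natural killer cell, 1 of 4 B cell and 3 of 5 neutrophil markers were tested. A change in those cells could therefore be missed. In bulk tissue, fewer cells of a type and less RNA per cell cannot be told apart, and the part of these cell types in the results was not tested.

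The promoters of the genes show what this set shares in sequence. RefSeq promoter windows (build GRCm38.p6, from 250 bases before to 50 after the transcription start) were matched by symbol for 31 of the 41 genes. The core of the ISRE, GAAA and another GAAA with any 2 bases between them, was found on either strand in the windows of 17 of the 31 genes (54.8%), against 1079 of 27025 genes with a window (3.99%). The letters TTCNNNGAA, a GAS-like palindrome, which reads the same on both strands, were found in 7 of the 31 (22.6%) against 9.55% of all genes. Matches of the 2 motifs can overlap, as they do in Bst2. The stretches below hold the ISRE core in 5 members to which the results return: Ifit1 and Ifit3b, which rose in STAM, their neighbour Ifit3, and Isg15 and Rsad2, whose STAM + Atglistatin levels lay below all STAM levels. Capitals mark every base inside a match, and TTTC with TTTC 2 bases further on is the same core read from the other strand.
Ifit1: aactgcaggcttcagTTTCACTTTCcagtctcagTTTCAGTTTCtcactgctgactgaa
Ifit3: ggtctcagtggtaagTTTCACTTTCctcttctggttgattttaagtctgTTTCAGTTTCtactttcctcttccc
Ifit3b: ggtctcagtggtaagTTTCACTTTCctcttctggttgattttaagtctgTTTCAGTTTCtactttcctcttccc
Isg15: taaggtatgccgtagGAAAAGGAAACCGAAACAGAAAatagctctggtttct
Rsad2: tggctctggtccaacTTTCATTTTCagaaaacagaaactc
These stretches lie at chr19:34640770-34640828 (plus strand) for Ifit1, chr19:34583358-34583431 (plus) for Ifit3, chr19:34607754-34607827 (plus) for Ifit3b, chr4:156200860-156200911 (minus) for Isg15 and chr12:26456548-26456587 (minus) for Rsad2. The 74 bases of Ifit3 and Ifit3b were identical, with 2 separate cores, and Isg15 held 3 overlapping cores in a row. Of the other genes that rose in STAM, Psmb8 held a GAS-like match (TTCCCAGAA, starting 97 bases before the start) and no ISRE core, and the window of Ifi44 held neither set of letters. The Psmb8 window with that match lies at chr17:34197945-34198244, inside the gene span given below, so the start used is internal to that span. A match describes letters in the window and does not show that a factor binds there. In STAM against chow the 16 tested members with the ISRE core had a median log2 fold change of 0.19, and 2 of them rose. The 14 with a window but without it had a median of 0.22, and 2 rose.

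STAM against chow compares the liver of streptozotocin-treated, high-fat-fed mice with that of untreated chow-fed mice. A minority of the interferon response genes passed the test: Ifi27, Ifi44, Ifit1, Ifit3b and Psmb8 rose in STAM, and no member fell. These 5 of 40 tested members (12.5%) stand beside 1.95% of all tested genes that rose, at an adjusted p under 0.05 in edgeR's quasi-likelihood test. Members and the lists below were chosen with earlier results of these data known, so such shares describe them and are no independent test. For falls the count was 0 of 40 beside 1.99% of all tested genes, and DESeq2 and limma-voom also gave 0. At an unadjusted p under 0.05, 11 members were higher and 0 lower, beside 7.24% and 7.31% of all tested genes. All 3 STAM libraries lay above all 3 chow libraries for 11 members, beside 10.6% of all tested genes, and below them for 0, beside 10.2%. Most members shifted slightly upward: 32 of 40 had a log2 fold change above 0 (80.0%, beside 49.9% of all tested genes), with a median of 0.19 beside 0.00 and a range from -0.27 to 1.56. The number that rose leaned on single libraries. It was 1 without chow replicate 8, chow replicate 9, STAM replicate 2 or STAM replicate 3, 2 without STAM replicate 1 and 3 without STAM + Atglistatin replicate 5, and Ifi27 was among the genes that rose each time.

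**Figure D1:**
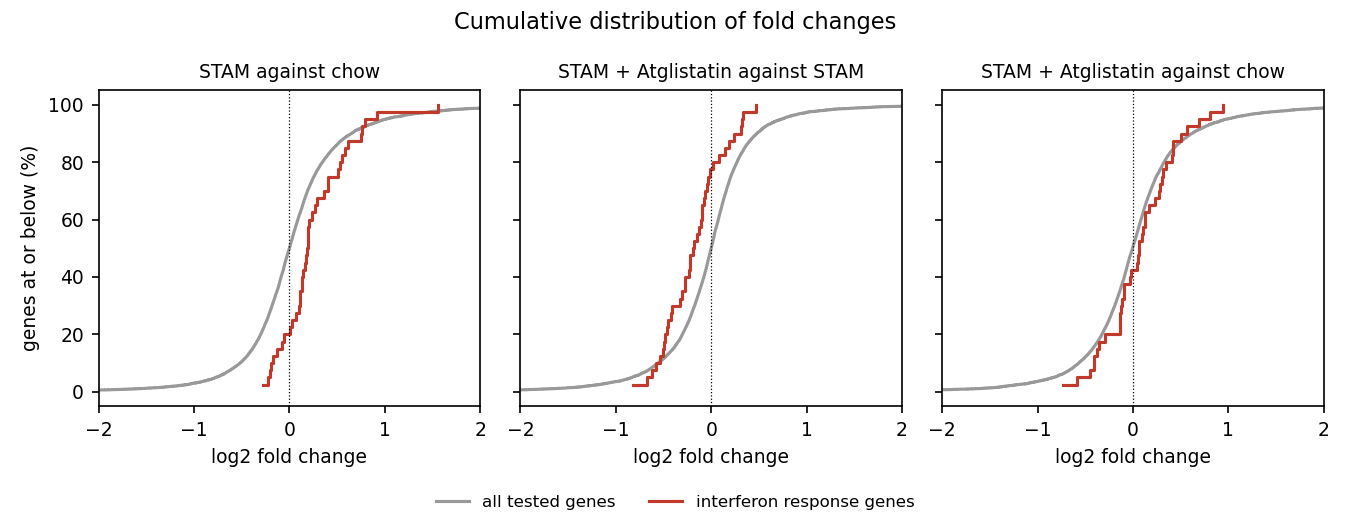
Cumulative percent of genes (y axis) at or below each log2 fold change (x axis) for the 40 tested interferon response genes and for all 12660 tested genes, in the 3 comparisons. The curve of the members lies to the right of all genes in STAM against chow (medians 0.19 and 0.00), to the left in STAM + Atglistatin against STAM (-0.19 and 0.00) and close to it in STAM + Atglistatin against chow (0.07 and 0.00). The groups are shared between panels, so the panels are not independent.

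Among the transcription factors of the response, none of the 3 passed the test in any comparison. Irf7, the master regulator of interferon alpha genes, stood at 45.0, 31.1 and 44.2 CPM in chow, 53.6, 50.4 and 54.9 in STAM, and 59.8, 55.6 and 45.7 in STAM + Atglistatin. All STAM and all STAM + Atglistatin libraries lay above the chow libraries, but the log2 fold changes of 0.40 ± 0.16 (SE; edgeR adjusted p = 0.237) and 0.42 ± 0.16 (adjusted p = 0.208) did not pass. Irf9, the DNA-binding part of ISGF3, stood at 46.0, 45.7 and 46.8 CPM in chow, 49.7, 53.5 and 55.3 in STAM and 56.7, 48.4 and 46.4 in STAM + Atglistatin. The STAM libraries were just above chow, and the Atglistatin libraries overlapped both groups. Stat2, its partner in ISGF3, ran at 26, 23.5 and 26.7, then 31.1, 26.3 and 30.5, then 31.7, 17.1 and 26.4 CPM. Its groups overlapped throughout, with STAM + Atglistatin replicate 5 the lowest library. Irf7 overlaps Phrf1 on the opposite strand and Irf9 overlaps Rnf31 on its own strand, and the sources used here do not give the authors' handling of strand.

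The 4 sensors of foreign nucleic acid showed no call, with log2 fold changes from 0.07 to 0.20 in STAM against chow. Ifih1, which encodes the long double-stranded RNA sensor MDA5, stood at 41.1, 33.4 and 43.9 CPM in chow, 42.1, 50.3 and 41.2 in STAM and 41.0, 29.5 and 40.2 in STAM + Atglistatin. The Atglistatin libraries all lay below STAM, though the nearest were almost level. Ddx58, the RNA sensor RIG-I, ran at 24.4, 24.8 and 34.1, then 33.6, 28.3 and 25.0, then 26.2, 22.2 and 27.9 CPM. Dhx58 (LGP2), which tunes those sensors, ran at 6.90, 8.32 and 6.80, then 8.07, 8.62 and 8.53, then 8.93, 5.39 and 8.76 CPM. Both overlapped between all groups. Zbp1, a sensor of Z-form nucleic acid that can trigger cell death, ran at 9.47, 8.56 and 12 CPM in chow, 5.97, 11.6 and 16.1 in STAM and 11.4, 14.3 and 16.6 in STAM + Atglistatin. Its STAM libraries spanned the whole chow range and beyond it in both directions.

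ISG15, the ubiquitin-like protein conjugated to targets in the response, was measured with its protease. Isg15 stood at 24.1, 20.8 and 28.5 CPM in chow, 31.5, 37.0 and 35.8 in STAM, and 28, 26.9 and 31.0 in STAM + Atglistatin. Every STAM library exceeded every library of the other groups, but neither difference passed: 0.51 ± 0.17 against chow (edgeR adjusted p = 0.125) and -0.28 ± 0.17 for STAM + Atglistatin against STAM (adjusted p = 0.641). Usp18, which removes ISG15 and blocks the type I receptor, ran at 18.1, 11.6 and 14.8, then 21.5, 17.5 and 26.6, then 12.5, 18.1 and 10.5 CPM. STAM replicate 2 overlapped both other groups. Its log2 fold change was 0.56 ± 0.25 against chow (adjusted p = 0.303) and -0.67 ± 0.25 in STAM + Atglistatin against STAM (adjusted p = 0.287, the smallest of any member in that comparison).

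The IFIT proteins, which bind viral RNA and stop its translation, held 2 of the genes that rose. Ifit1 (chr19:34640871-34650009, plus strand) stood at 23.3, 21.8 and 17.3 CPM in chow, 29.3, 35.0 and 40.7 in STAM, and 19.3, 27.6 and 29.5 in STAM + Atglistatin. STAM lay wholly above chow, whereas the Atglistatin libraries spread from the chow range to just above the lowest STAM library. The means were 20.8 ± 3.12, 35.0 ± 5.72 and 25.4 ± 5.44 CPM (SD, n = 3), and Ifit1 rose 1.68-fold in STAM against chow (log2 fold change 0.75 ± 0.20, edgeR adjusted p = 0.0447). This call held in 10 of 16 alternatives, with adjusted p from 0.00877 to 0.21, and was lost without each STAM library, chow replicate 8, chow replicate 9 or STAM + Atglistatin replicate 5. For STAM + Atglistatin the log2 fold change was -0.46 ± 0.20 against STAM (adjusted p = 0.412) and 0.29 ± 0.20 against chow (adjusted p = 0.577).

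Ifit3b, a close copy of Ifit3 (chr19:34607970-34613401, plus strand), was scarce, at 1.44, 3.13 and 2.81 CPM in chow, 8.40, 5.43 and 7.81 in STAM, and 4.31, 6.11 and 3.68 in STAM + Atglistatin. All STAM and all Atglistatin libraries exceeded chow, and the former overlapped the latter. It rose 2.93-fold in STAM (log2 fold change 1.56 ± 0.42, edgeR adjusted p = 0.0412), a call that held in 6 of the 15 alternatives that tested it (adjusted p 0.00907 to 0.178). It was lost with a fit to the 2 groups alone and on leaving out any chow library, any STAM library, or STAM + Atglistatin replicate 4 or 5. Ifit3 itself ran at 18.7, 11.1 and 10.6, then 13.8, 26.3 and 22.4, then 23.1, 19 and 18.5 CPM. Chow replicate 7 was above STAM replicate 1, and the log2 fold change of 0.62 ± 0.26 did not pass (adjusted p = 0.271). Without chow replicate 7 it was 0.94 and passed (adjusted p = 0.0434). Since 14.9% of the 50-base words in the last 500 bases of Ifit3 transcripts also occur in Ifit3b, reads from the Ifit3 end may be split between the copies. Of the words at the Ifit3b end 1.77% occur in other genes, and Ifit3 is not among those genes. With the counts of Ifit3 and Ifit3b summed, the pair rose by 0.81 ± 0.21 on the log2 scale in STAM against chow (adjusted p = 0.0341). Ifit2, the remaining IFIT member, was at 0.601 to 3.43 CPM in all 9 libraries, with overlapping groups.

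**Figure D2:**
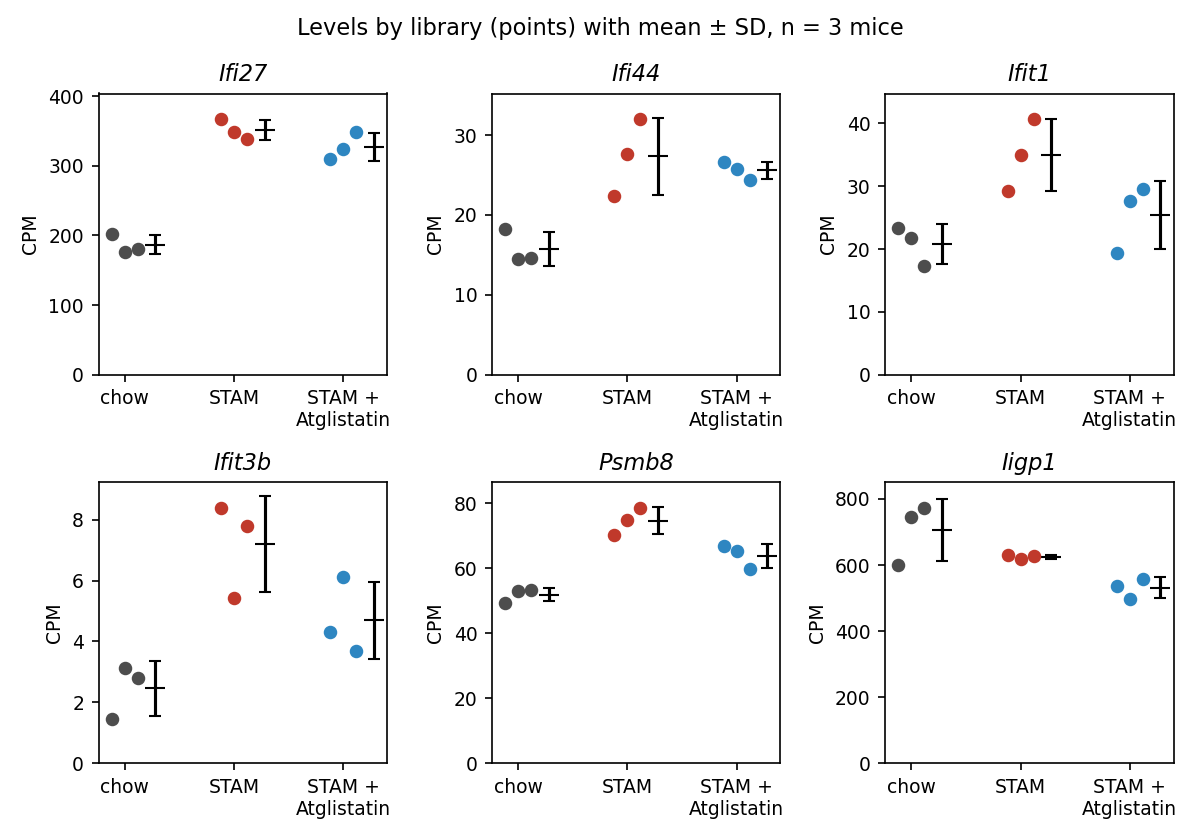
CPM (y axis, from 0) in each library (points, in replicate order) of the 3 groups, with mean ± SD of n = 3 mice beside them, for the 5 genes that rose in STAM against chow and for Iigp1. For Ifi27 the 6 libraries of STAM and STAM + Atglistatin, at 309 to 367 CPM, lie above the chow libraries, at 176 to 202; for Iigp1 the STAM + Atglistatin libraries, at 497 to 559, lie below all others.

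The OAS enzymes make 2'-5' linked oligoadenylates that activate RNase L, and none of the 4 tested members passed in any comparison. Oas1a was too low to test: its counts were 2, 0 and 4 in chow, 4, 10 and 9 in STAM and 4, 12 and 7 in STAM + Atglistatin. Of the 50-base words at its transcript ends 56.1% also occur in Oas1g, so its few counts may be split. Oasl2, an OAS-like protein, ran at 8.54, 4.82 and 5.91, then 5.31, 7.44 and 8.41, then 3.41, 5.70 and 5.08 CPM, with overlapping groups. The log2 fold changes of Oas2, Oas3, Oasl1 and Oasl2 in STAM against chow ran from -0.22 to 0.13, with a median of -0.13. Only Oasl2 was above 0 among these 4. Oas2 ran from 0.865 to 1.76 CPM in STAM + Atglistatin and from 1.77 to 2.06 in chow, without overlap, but at such low counts the SE of that difference was 0.78 on the log2 scale.

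Of the 6 other antiviral effectors, none passed in any comparison. Rsad2, or viperin, which makes a chain-terminating nucleotide, stood at 53.5, 21.6 and 19.8 CPM in chow, 45.0, 36.0 and 45.8 in STAM and 27.6, 28.3 and 31.2 in STAM + Atglistatin. Chow replicate 7 was the highest of all 9 libraries, and the other chow libraries were the lowest. The log2 fold change of 0.41 ± 0.27 in STAM against chow (edgeR adjusted p = 0.558) became 1.03 without chow replicate 7 (adjusted p = 0.00157). That library also had the highest summed level of recruited macrophage markers, 155 CPM, where replicates 8 and 9 of chow had 85.0 and 117. It was also the highest of the 9 libraries for the summed stellate cell markers, at 565 CPM beside 425 and 426 in chow, and for the cholangiocyte markers, at 55.2 beside 27.7 and 29.1. The part of those cells in the Rsad2 value was not tested. Against STAM, the Atglistatin value of Rsad2 was lower in all 3 libraries, with -0.54 ± 0.27 (adjusted p = 0.546). Bst2, or tetherin, which holds budding virus on the cell surface, ran at 89.4, 72.6 and 97.4, then 93.0, 95.2 and 75.5, then 90.4, 103 and 98.2 CPM. Mx1, a dynamin-like GTPase that blocks viral replication, was low in every library, at 2.16, 0.241 and 1.03, then 0.553, 1.42 and 1.20, then 1.51, 1.14 and 1.08 CPM. Both overlapped between all groups, as did Mx2, Cmpk2 and Trim30a.

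The IFI group held the member with the smallest adjusted p. Ifi27 (chr12:103434211-103440239, plus strand), a small interferon-inducible membrane protein, stood at 202, 176 and 181 CPM in chow, 367, 348 and 339 in STAM and 309, 324 and 348 in STAM + Atglistatin. The libraries of both streptozotocin-treated groups lay well above chow and overlapped each other. Means were 187 ± 14.0, 351 ± 14.3 and 327 ± 19.7 CPM (SD, n = 3). Ifi27 rose 1.88-fold in STAM against chow (log2 fold change 0.91 ± 0.11, edgeR adjusted p = 7.29e-05) and 1.75-fold in STAM + Atglistatin against chow (0.81 ± 0.11, adjusted p = 0.000261). Both calls held in all 16 alternatives, with adjusted p up to 0.00123 and 0.00292. These comparisons share the chow mice. STAM + Atglistatin against STAM gave -0.10 ± 0.11 (adjusted p = 0.85).

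Ifi44 (chr3:151730922-151749960, minus strand), a cytoplasmic interferon-inducible protein, stood at 18.2, 14.5 and 14.6 CPM in chow, 22.4, 27.6 and 32 in STAM and 26.6, 25.7 and 24.4 in STAM + Atglistatin. Again every library of the streptozotocin-treated groups exceeded chow, and the Atglistatin libraries fell within the STAM range. Ifi44 rose 1.73-fold in STAM (log2 fold change 0.79 ± 0.19, edgeR adjusted p = 0.023) and 1.62-fold in STAM + Atglistatin (0.69 ± 0.19, adjusted p = 0.0475) against chow. The former held in 12 of 16 alternatives (adjusted p 0.00625 to 0.128), failing when chow replicate 8, chow replicate 9, STAM replicate 2 or STAM replicate 3 was left out. The latter held in 7 of 16 (adjusted p 0.025 to 0.179), failing with the 2 groups alone and without any library other than chow replicate 7. Xaf1, which antagonises the inhibitor of apoptosis XIAP, ran at 3.91, 3.74 and 3.55, then 4.98, 2.95 and 5.29, then 3.11, 1.87 and 2.49 CPM. Its Atglistatin libraries lay below chow but not below every STAM library. Ifi35, the remaining member of the group, spanned 17.6 to 28.6 CPM with overlapping groups.

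Interferon-inducible GTPases attack the vacuoles of intracellular parasites, and none of the 6 passed. Iigp1 (Irga6), which is loaded onto the vacuole membrane, stood at 599, 744 and 774 CPM in chow, 630, 617 and 627 in STAM, and 537, 497 and 559 in STAM + Atglistatin. The Atglistatin libraries were lower than every other library, and STAM lay inside the chow range. Against chow the log2 fold change was -0.41 ± 0.12 in STAM + Atglistatin (edgeR adjusted p = 0.0625), just outside the threshold. It passed with no low-count filter (adjusted p = 0.044), with DESeq2 (0.0166), with limma-voom (0.0105) and without chow replicate 7 (0.00463, with a log2 fold change of -0.52). In the authors' deposited table Iigp1 fell in that comparison, with a log2 fold change of -0.39 and an adjusted p of 0.013. Against STAM it was -0.23 ± 0.12 (edgeR adjusted p = 0.546).

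Gbp2 and Gbp3 belong to the guanylate-binding proteins, which lyse pathogen vacuoles and activate inflammasomes. Gbp2 ran at 8.65, 4.34 and 4.88, then 6.19, 3.90 and 7.93, then 3.61, 5.49 and 4.43 CPM, with overlapping groups. Gbp3 spanned 4.88 to 6.99 CPM in chow and 7.33 to 14.5 in STAM without overlap, and its log2 fold change of 0.76 ± 0.35 did not pass (edgeR adjusted p = 0.317). Gbp7 was 39.1, 40.2 and 42.6 CPM in STAM + Atglistatin against 53.2, 52.9 and 46.9 in STAM, also without overlap (-0.33 ± 0.14, adjusted p = 0.404). Igtp (Irgm3), an immunity-related GTPase, ran at 40.1, 39.9 and 40.3 CPM in chow, 33.4, 32.7 and 66.0 in STAM, and 45.0, 60.8 and 44.0 in STAM + Atglistatin. Chow was nearly constant, and STAM had libraries on both sides of it. Irgm1, which regulates that family, ran at 13.7, 22.1 and 13.3, then 14.9, 14.6 and 13.3, then 13.7, 8.60 and 17.8 CPM, and overlapped throughout. Igtp overlaps Irgm2 on its own strand, and the 3' end of Igtp lies inside the span of Irgm2. The sources used here do not give how reads there were counted.

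None of the 4 ADP-ribosylating and ubiquitin-linked enzymes passed the test in any comparison. Parp14, an ADP-ribosyltransferase of macrophage signalling, ran at 40.2, 32.5 and 33.8, then 36.2, 40.9 and 37.7, then 41.0, 36.2 and 34.6 CPM, with overlapping groups. Rnf213, a giant E3 ubiquitin ligase found on lipid droplets and intracellular bacteria, stood at 27.7, 29.3 and 37.5 CPM in chow, 31.7, 29.6 and 42.9 in STAM, and 24.4, 22.5 and 27 in STAM + Atglistatin. The Atglistatin libraries lay below all others, with -0.50 ± 0.19 against STAM (edgeR adjusted p = 0.297) and -0.35 ± 0.19 against chow (adjusted p = 0.4). Dtx3l, a ubiquitin ligase that forms a complex with PARP9, ran from 45.8 to 62.8 CPM in chow, from 61.0 to 72.1 in STAM and from 65.7 to 78.3 in STAM + Atglistatin. Its Atglistatin libraries lay above all chow libraries, and the difference did not pass (edgeR adjusted p = 0.264). Parp9, which overlaps Dtx3l on the opposite strand, spanned 37.2 to 53.2 CPM over the 9 libraries, with overlapping groups.

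Antigen processing held the last gene that rose. Psmb8 (chr17:34197721-34201454, plus strand), the immunoproteasome subunit that replaces a constitutive one under interferon gamma, stood at 49.4, 52.9 and 53.2 CPM in chow, 70.3, 74.9 and 78.6 in STAM and 66.7, 65.1 and 59.6 in STAM + Atglistatin. The 3 groups did not overlap, with STAM + Atglistatin between the other groups. Means were 51.8 ± 2.11, 74.6 ± 4.14 and 63.8 ± 3.75 CPM (SD, n = 3), and Psmb8 rose 1.44-fold in STAM against chow (log2 fold change 0.53 ± 0.13, edgeR adjusted p = 0.0252). The call held in 10 of 16 alternatives (adjusted p 0.00479 to 0.105) and was lost without each chow and each STAM library. Neither comparison of STAM + Atglistatin passed, at -0.23 ± 0.13 against STAM (adjusted p = 0.598) and 0.30 ± 0.13 against chow (adjusted p = 0.269). Psmb8 overlaps the gene model Gm20496 on the opposite strand.

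Psmb9, the companion immunoproteasome subunit, ran at 52.6, 50.7 and 42.4 CPM in chow, 81.4, 64.1 and 72.3 in STAM, and 36.8, 60.9 and 61.7 in STAM + Atglistatin. STAM lay above both other groups, and Atglistatin replicate 4 below all libraries. The log2 fold change of 0.58 ± 0.18 in STAM against chow did not pass (edgeR adjusted p = 0.0967), though it passed with no low-count filter (0.0138), limma-voom (0.0268), the 2 groups alone (0.0404) and without STAM + Atglistatin replicate 4 (0.0334). Tap1, which pumps peptides into the endoplasmic reticulum for class I presentation, ran at 29.8, 26 and 22.8, then 35.8, 34.0 and 31.1, then 22.7, 31.8 and 26.9 CPM. STAM exceeded chow without overlap, at 0.36 ± 0.18 (adjusted p = 0.371). Psmb9 and Tap1 overlap on opposite strands only where both genes start, away from the 3' ends that QuantSeq reads.

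**Figure D3:**
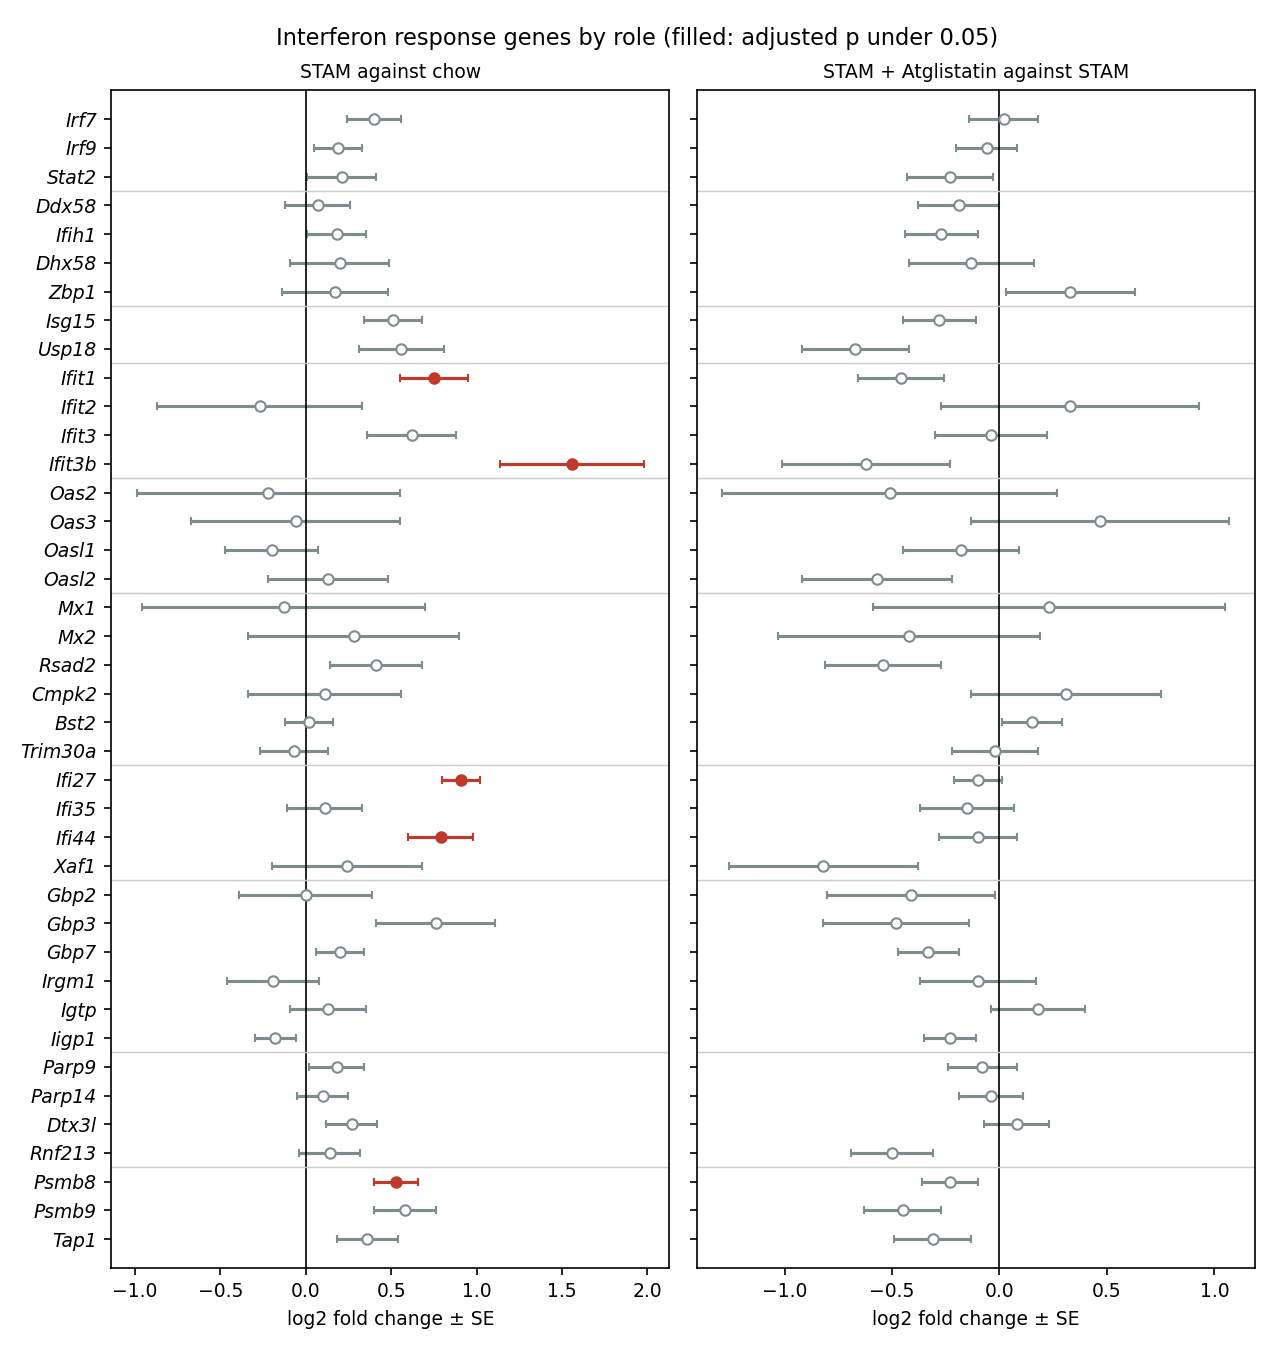
Log2 fold change ± SE (x axis) from edgeR for the 40 tested members (y axis, grouped by role) in STAM against chow and in STAM + Atglistatin against STAM. Filled points are the 5 genes with an adjusted p under 0.05, all in the left panel; in the right panel 31 of 40 points lie below 0 and none is filled.

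STAM + Atglistatin against STAM asks what the lipase inhibitor changed in the same disease model. No member passed the test: 0 of 40 rose beside 1.04% of all tested genes, and 0 fell beside 0.742%. DESeq2 and limma-voom also gave 0 in both directions, and the authors' deposited table listed 0 of the members as past the same threshold. At an unadjusted p under 0.05 in edgeR, 0 members were higher and 5 were lower (Usp18, Ifit1, Gbp7, Rnf213 and Psmb9), beside 5.09% and 5.06% of all tested genes. The groups did not overlap for 8 members, all lower with Atglistatin, beside 8.45% of all tested genes lower and 8.58% higher; they were Ifih1, Isg15, Rsad2, Gbp7, Iigp1, Rnf213, Psmb8 and Psmb9. Log2 fold changes were above 0 for 9 members and below for 31, so 22.5% were higher beside 49.9% of all tested genes, with a median of -0.19 beside 0.00. The median moved to -0.25 without STAM + Atglistatin replicate 4 and to -0.10 without STAM + Atglistatin replicate 5. Because the same STAM mice enter this comparison and STAM against chow, on opposite sides, the opposite signs of the medians are not independent of each other.

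STAM + Atglistatin against chow gave 2 of 40 members that rose, Ifi27 and Ifi44, beside 2.10% of all tested genes, and 0 that fell, beside 1.97%. DESeq2 and limma-voom each added 1 that fell, Iigp1. At an unadjusted p under 0.05, 7 members were higher and 1 lower, beside 7.47% and 7.36% of all tested genes. All 3 Atglistatin libraries lay above all chow libraries for 7 members, beside 9.60%, and below them for 4, beside 9.03%. The median log2 fold change was 0.07 beside 0.00, and 57.5% of members were higher beside 49.4% of all tested genes. By group means, 14 of the 40 members stood in the order chow, STAM + Atglistatin, STAM from low to high, among them Ifit1, Ifit3b, Ifi27, Ifi44 and Psmb8. Another 12 had STAM + Atglistatin lowest and STAM highest, 6 had STAM + Atglistatin highest and chow lowest, and the other 8 had STAM below chow.

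**Figure D4:**
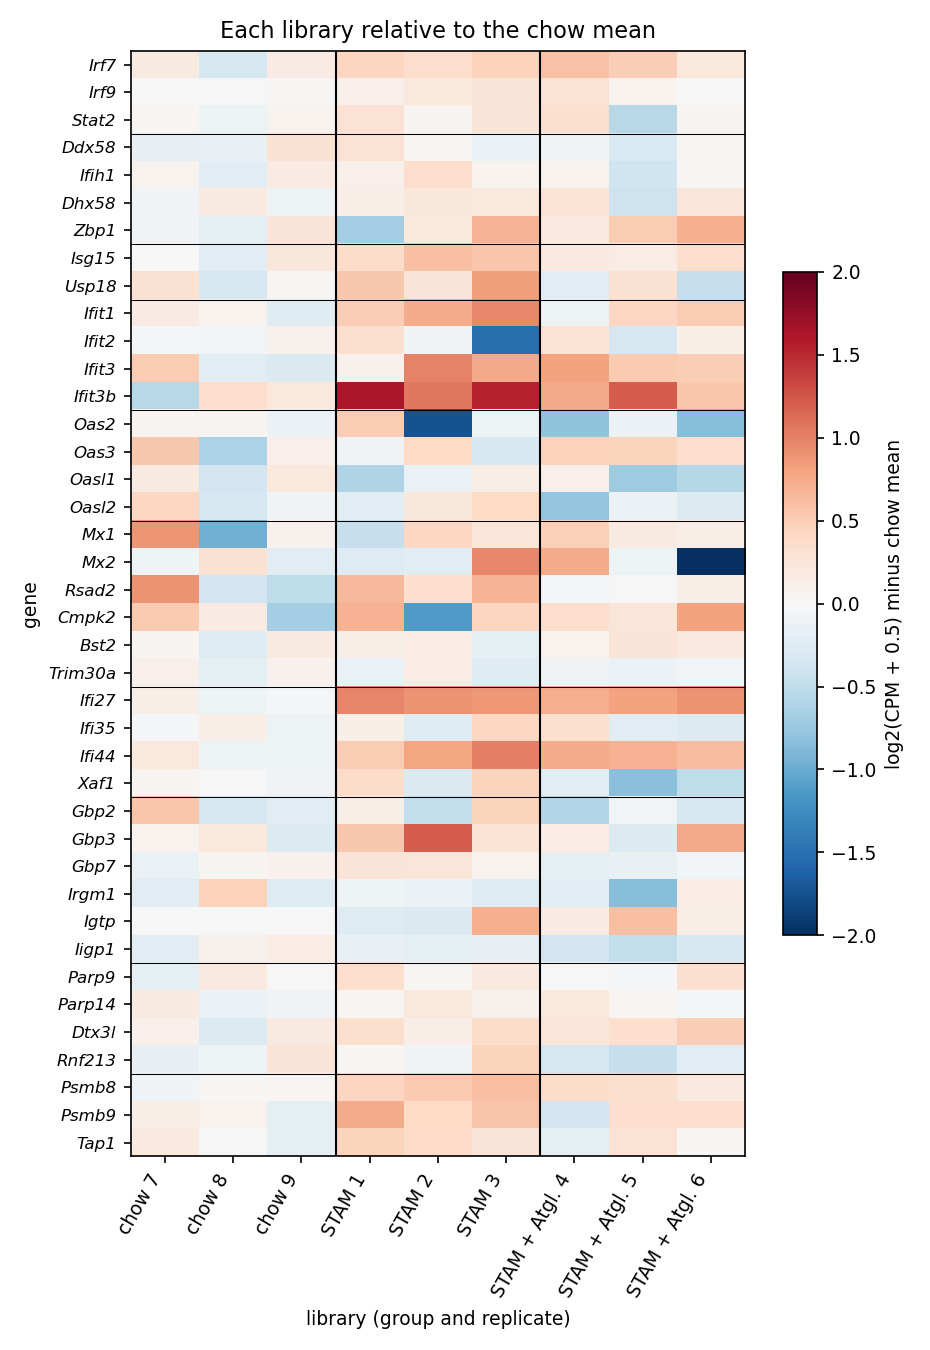
Log2(CPM + 0.5) of each of the 40 tested members (y axis, grouped by role) in each library (x axis, with group and replicate), minus the mean of the 3 chow libraries; red is above and blue below that mean. Ifi27, Ifi44, Ifit3b and Psmb8 are red in all 3 STAM and all 3 STAM + Atglistatin libraries. So are some members that did not pass, among them Irf7, Isg15, Dtx3l and Ifit3. Many other members are red and blue within 1 group.

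Libraries of the same group differed in which members were high. Within chow, replicate 7 was the highest of its group for 18 of the 40 members, replicate 8 for 7 and replicate 9 for 15. Within STAM the counts were 13, 10 and 17 for replicates 1, 2 and 3, and within STAM + Atglistatin 16, 8 and 16 for replicates 4, 5 and 6. The median log2 ratio of the members to the chow mean was 0.26, 0.20 and 0.36 in the STAM libraries, 0.16, -0.02 and 0.09 in the STAM + Atglistatin libraries and 0.06, -0.09 and -0.01 in the chow libraries. By this measure every STAM library stood above every library of the other groups, and STAM + Atglistatin overlapped chow. The share of counts from mitochondrially encoded genes moved in the same way, at 11 to 11.5% in STAM, 7.28 to 8.74% in chow and 8.61 to 9.69% in STAM + Atglistatin, and its part in the result was not tested.

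Upstream of the members, a list of 34 receptors, kinases, sensors' adaptors and factors had 31 tested genes. Their median log2 fold change in STAM against chow was -0.07. Irf5, a factor of inflammatory cytokine induction, ran at 17.9, 17.5 and 11.4, then 7.74, 6.38 and 7.57, then 6.12, 4.87 and 4.32 CPM. It fell by 1.11 ± 0.27 in STAM (adjusted p = 0.0263) and fell by 1.61 ± 0.28 in STAM + Atglistatin (adjusted p = 0.00192), both against chow. It overlaps Tnpo3 on the opposite strand. The fall in STAM was lost without chow replicate 7 or 8 or any STAM library. Rnf135, a ubiquitin ligase of RIG-I, rose by 0.80 ± 0.21 in STAM + Atglistatin against chow (adjusted p = 0.0339), a call held in 8 of 16 alternatives. No gene of the list passed in STAM + Atglistatin against STAM in edgeR, with 1 higher and 1 lower at an unadjusted p under 0.05, beside 5.09% and 5.06% of all tested genes.

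The receptor genes Ifnar1 and Ifngr1 and the factor Irf1 passed in no comparison, and Socs1, a feedback inhibitor, was too low to test. Ifnar1, a chain of the type I receptor, ran at 7.93, 8.68 and 11.7, then 10.4, 7.68 and 8.29, then 7.73, 6.73 and 5.73 CPM. Its Atglistatin libraries lay below chow, and chow and STAM overlapped. The 21 interferon genes themselves summed to 1 count over the chow libraries, 3 over STAM and 0 over STAM + Atglistatin. At this depth no difference in the ligands was detectable.

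A second list, of 83 other interferon-stimulated genes, had 72 tested, of which 6 rose and 1 fell in STAM against chow, beside 1.95% and 1.99% of all tested genes, with a median of 0.17. The 5 with the smallest p were Apol9a (1.02 ± 0.19, edgeR adjusted p = 0.00268), Apol9b (0.75 ± 0.14, adjusted p = 0.00266), Gbp11 (2.15 ± 0.41, adjusted p = 0.00394), Ifi27l2b and Lgals3bp. Whether Apol9a and Apol9b share transcript ends was not checked. The Lgals3bp call was lost in 5 of 16 alternatives: without chow replicate 8, chow replicate 9 or any STAM library. Gbp11 stood at 4.12, 1.81 and 1.77 CPM in chow, 8.51, 16.5 and 9.85 in STAM and 8.23, 4.56 and 5.41 in STAM + Atglistatin, so each STAM library exceeded every other library. Ifi27l2b, a relative of Ifi27 in the same stretch of chromosome 12, ran at 19, 4.58 and 4.43, then 29.3, 34.6 and 25.8, then 30.8, 37.7 and 48.6 CPM. Both streptozotocin-treated groups exceeded chow, and it rose by 1.64 ± 0.38 in STAM (adjusted p = 0.019) and by 2.02 ± 0.38 in STAM + Atglistatin (adjusted p = 0.00395). The former was lost in 6 of 16 alternatives: with DESeq2, with the 2 groups alone, and without chow replicate 8, chow replicate 9, STAM replicate 1 or STAM replicate 2. Ifitm2, which blocks viral entry, was the gene that fell, by 0.49 ± 0.13 in STAM (adjusted p = 0.0378), a call held in 8 of 16 alternatives. With Atglistatin against STAM, 0 of the 72 passed in edgeR, with 1 higher and 6 lower at an unadjusted p under 0.05, beside 5.09% and 5.06% of all tested genes, and a median of -0.08. Against chow, 2 rose with Atglistatin beside 2.10% of all tested genes, Ifi27l2b and Apol9b (0.53 ± 0.14, adjusted p = 0.0318), with a median of 0.08. The Apol9b call was lost in 6 of 16 alternatives: with the 2 groups alone, and on leaving out chow replicate 7, chow replicate 9, STAM replicate 1, or STAM + Atglistatin replicate 4 or 5.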

How the data were processed

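QuantSeq 3' libraries from the livers of 9 male mice were compared in 3 groups of 3, taken from the sample titles and the series' design. For chow and STAM mice the treatment label disagrees with these and was set aside. Reads were aligned with STAR to GRCm38, per the submitters' processing notes. Not given in the sources used here are STAR's version, the counting tool, the annotation and the handling of strand and of multiply mapped reads. Deposited were the authors' raw read counts per gene and, per the file headers, the authors' own log2 fold changes and adjusted p-values for the 3 comparisons. Nothing says whether each library is a separate litter or cage, so p-values measure the spread between these libraries.

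The tests used edgeR 4.0.16 in R 4.3.3, after 7 ribosomal RNA entries (0.26 to 0.529% of counts) were left out: TMM scaling, filterByExpr (12660 genes kept), 1 quasi-likelihood fit to all 9 libraries and Benjamini-Hochberg adjustment over all tested genes, with a threshold of 0.05. The common biological coefficient of variation was 0.236. The SE of a log2 fold change is its size divided by the square root of the F statistic. Alternatives were DESeq2 size factors, library totals without TMM, DESeq2 1.42.0, fitting only the 2 groups compared, limma-voom 3.58.1 with sample weights, no filter on low counts, Ifit3 and Ifit3b summed, and each library left out in turn. The script was tested on simulated data. Members and lists were chosen with earlier results of these data known. Per-library values were given for every member past the threshold in any comparison and for a fixed selection from each role, and the other members by range or count. Of the other lists, genes past the threshold were named, up to 5 per direction, apart from 1 result that is not reported here. Positions come from GENCODE M21 and promoters from RefSeq, both on GRCm38. No promoter window was matched for Parp14, Dhx58, Oas2, Usp18, Iigp1, Mx1, Ifi27, Mx2, Parp9 and Zbp1.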

Additional observations from a re-analysis of the deposited data

How the results depend on the processing

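In STAM against chow the number of members that rose was 5 to 6 under the alternatives that kept all libraries and 1 to 5 with a library left out, and none fell under any alternative. Between STAM + Atglistatin and STAM no member passed under any alternative, and the median log2 fold change was -0.25 to -0.10 with a library left out. Between STAM + Atglistatin and chow the number that rose was 1 with the 2 groups alone and 1 to 2 with a library left out. The number that fell was 1 with no low-count filter, with DESeq2 and with limma-voom, and 0 to 1 with a library left out, and the median there was -0.01 to 0.15. Library totals without TMM moved the median of all genes to 0.09 and that of the members to 0.28 in STAM against chow. Values near 0 changed sign. In STAM + Atglistatin against STAM, limma-voom gave 0.07 for Ifit3, and leaving out a library gave -0.27 to 0.16 for Ifit3, -0.07 to 0.12 for Irf7 and -0.22 to 0.03 for Ifi44. In STAM + Atglistatin against chow, limma-voom gave 0.18 for Rsad2, and leaving out a library gave -0.38 to 0.49 for Rsad2, -0.08 to 0.16 for Tap1, -0.37 to 0.06 for Usp18 and -0.07 to 0.50 for Gbp3. Rnf213 in STAM against chow was -0.03 to 0.29 with a library left out. The cause of these shifts was not tested. No paired analysis was possible because the groups share no replicate numbers. With 3 mice a group and low counts, members such as Mx1, Oas2, Oas3 and Ifit2 had SEs of 0.60 to 0.83 on the log2 scale in STAM against chow, which limits the differences that could be detected for them.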
